A study of Rattus norvegicus with 23 samples.

Results

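The brown and white fat genes are 10 genes that fat cells are known for: Ucp1, Cidea, Elovl3 and Slc36a2, which are linked to brown fat, and Adipoq, Lep, Cidec, Plin1, Fabp4 and Cfd, which belong to fat cells of more than 1 kind or to white fat. They were chosen from the signals of these same arrays, where Ucp1 and Slc36a2 had stood out in the sinoatrial node, and they were looked up among 16544 genes with a matched probe. A probe was matched for 9 of the 10. No probe was matched for Plin1, so it has no value here. All 9 passed the filter on low values, Elovl3 only through 1 LV, 1 SA and 3 PA arrays.

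The data were 23 one-color Agilent arrays of heart tissue from male Wistar rats. The regions were the left atrium (LA, 4 arrays), left ventricle (LV, 4), right ventricle (RV, 3), sinoatrial node (SA, 4), pulmonary vein (PV, 4) and pulmonary artery (PA, 4), and the labels name no transgene and no test agent. LA was the part next to the pulmonary vein, RV was the free wall, and tissue of 2 rats was needed for 1 SA sample. According to the study's methods, nerve and fat were trimmed from the tissue under a microscope. By the same methods, the node was dissected in a procedure of its own, and a left ventricle was cut into several pieces that served as samples, so LV arrays may share a heart. Which of the other samples came from the same rat was not given in the sources used here, so p-values below measure the spread between these samples.

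Brown fat burns fatty acids for heat through UCP1, a proton channel of the inner mitochondrial membrane, and its cells hold many small lipid droplets. White fat stores triglyceride in 1 large droplet and secretes the hormones leptin and adiponectin. Rodents carry fat of both kinds around the great vessels of the chest. In bulk tissue, fewer cells of a type and less RNA per cell cannot be told apart, and this holds for every level below.

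Upstream windows of Ucp1, Slc36a2 and Lep are shown because the results turn on these genes. Only bases outside the annotated gene are printed. They were taken from RefSeq, build GRCr8, and run 5′ to 3′ on the strand of the gene. The Ucp1 window covers chr19:41721422-41721671 on the minus strand, the Slc36a2 window chr10:39806782-39807023 on the minus strand, and the Lep window chr4:58626288-58626528 on the plus strand. Capitals mark matches on either strand to 1 of the 6 motifs searched. These were TATAAA (the TATA box) and CCAAT (the CCAAT box), GGGCGG (the GC box) and TGACG (part of a cyclic AMP response element), and also the core of C/EBP-type sites, TTNNGCAA, and a nuclear receptor half-site, AGGTCA.
Ucp1: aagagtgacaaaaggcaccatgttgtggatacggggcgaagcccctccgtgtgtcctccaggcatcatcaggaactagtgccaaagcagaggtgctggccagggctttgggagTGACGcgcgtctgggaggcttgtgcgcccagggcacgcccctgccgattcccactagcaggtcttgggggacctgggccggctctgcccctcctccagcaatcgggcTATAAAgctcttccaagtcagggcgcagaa
Slc36a2: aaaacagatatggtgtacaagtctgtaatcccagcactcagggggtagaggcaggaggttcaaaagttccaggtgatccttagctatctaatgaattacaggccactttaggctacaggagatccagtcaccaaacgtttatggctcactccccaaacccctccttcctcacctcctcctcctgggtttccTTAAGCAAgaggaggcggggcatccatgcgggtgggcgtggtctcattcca
Lep: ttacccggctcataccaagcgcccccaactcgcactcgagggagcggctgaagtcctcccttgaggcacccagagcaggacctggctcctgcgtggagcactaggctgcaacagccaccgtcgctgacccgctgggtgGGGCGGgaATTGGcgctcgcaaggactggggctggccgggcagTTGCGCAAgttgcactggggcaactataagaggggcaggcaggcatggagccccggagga

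Windows of 250 bases before the start site were held for 9 of the 10 genes, Plin1 included and Fabp4 not. Not all lie upstream of the annotated gene: the Cidec window is inside it over all 250 bases, and the Adipoq and Plin1 windows over 75 and 51. TATAAA was found in the window of Ucp1 alone, at position -30 from the start site, and in 12.9% of 33469 rat promoter windows of the same length. TTNNGCAA was found in 4 of the 9 windows, those of Cidec, Lep, Plin1 and Slc36a2, and in 9.22% of all windows. The match was at -59 in Slc36a2 and at -69 in Lep. CCAAT was found in 4 windows (Adipoq, Elovl3, Lep and Plin1) and in 34.0% of all. GGGCGG was found in 4 windows (Cfd, Cidea, Elovl3 and Lep) and in 30.5% of all, and TGACG in 3 windows (Cfd, Plin1 and Ucp1) and in 18.2% of all. AGGTCA was found in 0 of the 9 windows and in 14.1% of all. A match is a description of the letters and not a measured binding site.

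Ucp1 was bright on every SA and PA array, split into high and low arrays in PV, and dim in LA and both ventricles. In the order of the replicates, the signal (the authors' normalized intensity, linear scale) was 2873.7, 12427.8, 2267.0 and 5642.6 in SA. It was 2259.1, 5172.1, 9596.9 and 10263.0 in PA. In PV it was 5486.4 and 5107.6 on the first pair of arrays and 284.4 and 324.2 on the other pair. The PV arrays therefore fell into 2 levels, both above every LA array. In LA it was 13.5, 42.3, 161.8 and 33.3, of which 2 were well above background. The ventricles ranged from 9.4 to 31.8. On the log2(signal + 1) scale used from here on, the means were 12.18 ± 1.1 (SD, n = 4) in SA, 12.51 ± 1.01 in PA, 10.31 ± 2.38 in PV and 5.44 ± 1.44 in LA. Against LA, the difference was 6.74 in SA, 4.88 in PV and 7.07 in PA, each with a standard error of 0.93. Because not all LA arrays were well above background, these sizes are not exact. With normexp background correction they were 5.17, 3.45 and 5.43. Since Ucp1 was chosen for its pattern, these differences are descriptions and were not tested. In the order of the means, the ranges of PA and SA overlapped, as did those of SA and PV, while the ranges of PV and LA did not.

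Slc36a2, a proton-coupled transporter of small amino acids that is used as a surface marker of brown fat cells, followed the same regions. Its signal was 64.7, 101.4, 60.6 and 103.7 in SA. It was 166.6, 93.2, 36.5 and 66.3 in PV, with the third array not well above background. PA was the highest region, at 150.2, 175.8, 271.2 and 298.3, and its range lay above that of SA. On no LA, LV or RV array was the probe well above background, so only a bound can be given against LA: at least 4.03-fold higher in SA, at least 3.94-fold in PV and at least 10.7-fold in PA. Such a bound sets the measured mean against the dimmest probe called well above background on each array. The PV mean includes the third array, so that bound is not strict. The bounds hold for the main processing, where they are 2.01, 1.98 and 3.42 in log2. Differences were smaller with a pseudocount of 16 (1.83, 1.83 and 3.09) and with normexp background correction (1.12, 1.04 and 1.84). These values too were not tested, because the gene was chosen for them.

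Cidea, which promotes lipid droplet growth and is best known from brown fat, did not follow Ucp1. It was bright on all 23 arrays. Its signal ran from 8189.3 to 10655.9 in LA, from 7960.4 to 11926.5 in SA and from 7013.9 to 10357.3 in PV. The ventricles lay lower, from 4008.2 to 6199.2. PA was the lowest region, from 2846.7 to 3481.5, below every other array. In the limma fit, Cidea was lower in PA than in LA by -1.62 ± 0.15 (log2 difference ± SE, adjusted p = 1.13e-08), and the differences from SA (-1.60) and PV (-1.41) were also called. Here the data go against the name of the group: the level of Cidea was high on LA arrays on which Ucp1 was not well above background.

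Elovl3, a fatty acid elongase that rises in brown fat in the cold, was near the detection limit. It was well above background on 2 of 4 PA arrays, 1 of 4 SA arrays, 1 of 4 LV arrays and on no LA, RV or PV array. The PA signals were 22.6, 31.1, 47.5 and 10.9, against 4.3 to 9.3 in LA. By limma, Elovl3 was called higher in PA than in LA (1.76 ± 0.49, adjusted p = 0.00503). The filter on low values kept it through PA, SA and LV arrays and through no LA array. Since no LA array and only 2 of 4 PA arrays were well above background, no size or bound of the fold can be given. The highest signal of all was on 1 LV array, at 55.6.

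**Figure D1:**
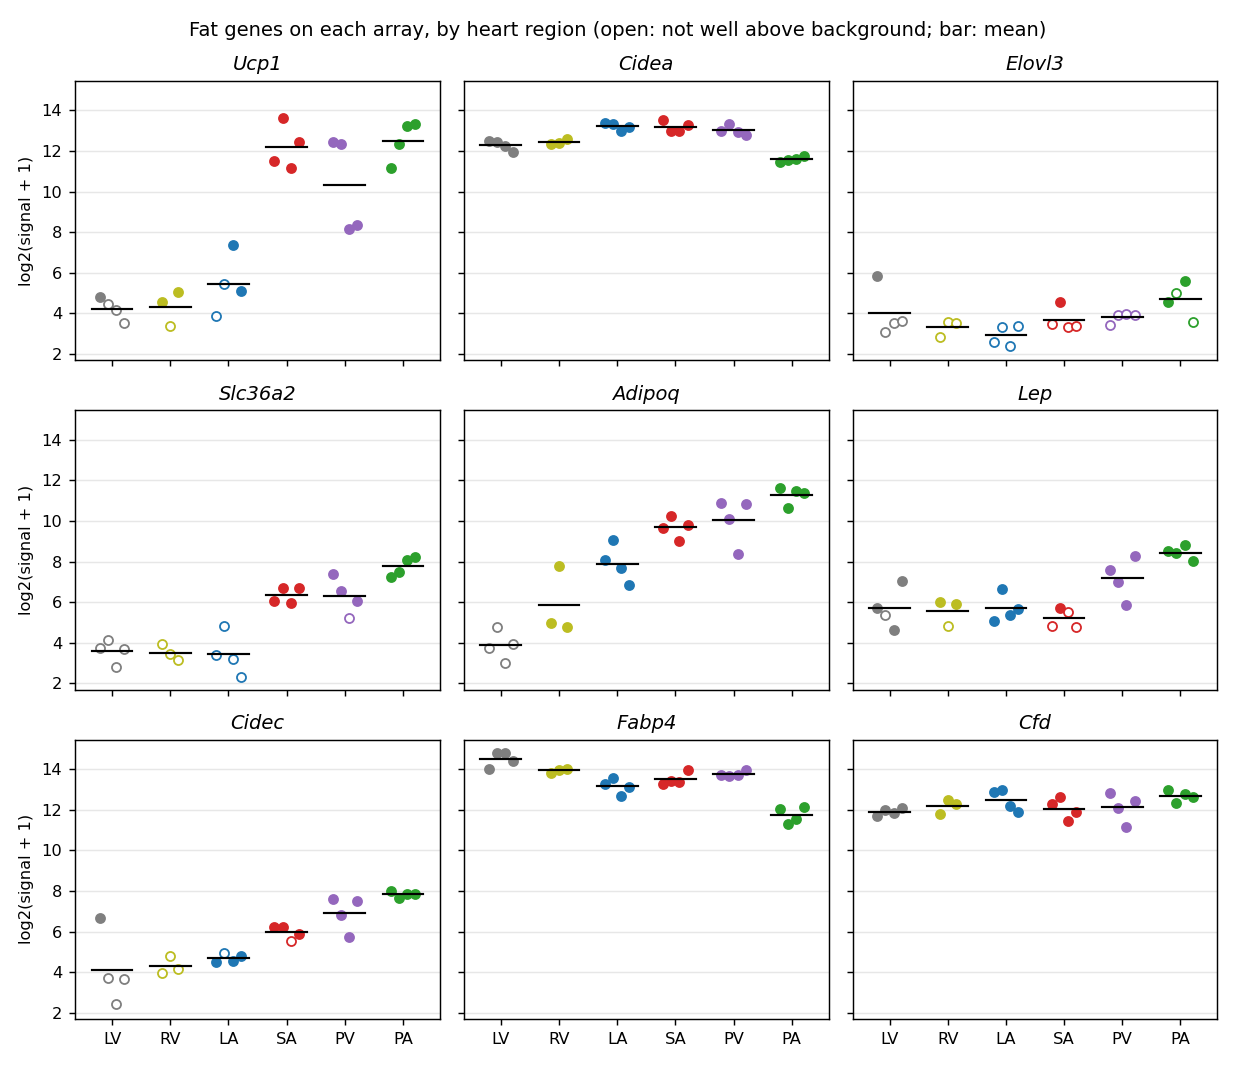
Level of each of the 9 measured fat genes on all 23 arrays as log2(signal + 1), by region, with 1 point per array, filled where the probe was well above background, and a bar at the region mean. Ucp1, Slc36a2, Adipoq and Cidec are high in SA, PV and PA, whereas Cidea and Fabp4 are lowest in PA and Cfd differs little. Brightness of different probes is not comparable, so panels should be read across and not against each other.

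Adipoq, which encodes the hormone adiponectin and is made by brown and white fat cells alike, showed a gradient. Its signal was 3168, 1619, 2903 and 2653 in PA. In PV it was 1886, 1086, 331.2 and 1838, and in SA 807.4, 1223, 514.9 and 882.3. In LA it was lower, at 266.3, 533.2, 201.9 and 111.6, yet it was well above background on every LA array. LV gave 7.1 to 26.2, with no array well above background. Of the RV arrays, 2 were at 26.7 and 30.3 and 1 at 220.6, within the range of LA. The region means in log2 were 11.29 in PA, 10.05 in PV, 9.68 in SA, 7.90 in LA, 5.85 in RV and 3.87 in LV. The ranges of neighbors in this order overlapped, except those of RV and LV. Adipoq was called higher in PA than in LA (3.39 ± 0.64, adjusted p = 0.000149) and than in SA (1.61 ± 0.64, adjusted p = 0.0405), and higher in PV than in LA (2.15 ± 0.64, adjusted p = 0.031). The call in PV against LA was lost when any of 6 of the 8 arrays was left out (adjusted p = 0.0543 to 0.104 without LA1, LA3, LA4, PV1, PV2 or PV4), and that in PA against SA when any of 6 of 8 was (0.0615 to 0.109 without PA1, PA3, PA4, SA1, SA3 or SA4). SA and PV did not differ by a called amount (0.37 ± 0.64, adjusted p = 0.857). Nor did PA and PV (1.25 ± 0.64, adjusted p = 0.114; 0.0317 with normexp background correction). In SA against LA the difference was 1.78 ± 0.64, which was not tested because that contrast was used to choose the genes.

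Lep encodes leptin, the satiety hormone that white fat secretes in proportion to its triglyceride store. Its signal was 365.5, 339.0, 445.7 and 259.2 in PA and 191.3, 124.6, 56.7 and 310.7 in PV. In SA it was 27.5, 51.1, 44.8 and 26.4, with 1 of 4 arrays well above background, and LA spanned 32.2 to 99.8. Well above background was called more often in row 1 of each slide, where SA2 was the only SA array and LA2 the only LA array missing. Such calls in SA and LA are therefore not on equal terms. The signals are the higher of 2 probes on each array, and the probes disagreed. The first, the brighter on average, spanned 259.2 to 445.7 in PA and 56.7 to 310.7 in PV, and gave every PA and PV value. The other stayed between 18.9 and 63.0 in all regions and gave 3 of the 4 SA values and 2 of the 4 LA values. On the first probe alone, Lep was at 22.7, 51.1, 35.1 and 13.4 in SA and 32.2 to 99.8 in LA, so no SA array exceeded the range of LA. Since 3 SA arrays were not well above background on either probe, differences from SA have no exact size. With the higher probe, the difference of PA from LA was 2.75 ± 0.51 (adjusted p = 0.00011) and that of PA from SA 3.23 ± 0.51 (adjusted p = 1.64e-05), and on the first probe alone both were called too, at 2.86 ± 0.72 (adjusted p = 0.0021) and 3.62 ± 0.72 (adjusted p = 0.000223). PV against LA was not called, at 1.49 ± 0.51 (adjusted p = 0.0599) with the higher probe and 1.59 ± 0.72 (adjusted p = 0.169) with the first, but passed with normexp, a pseudocount of 16, the stricter filter or a variance trend (adjusted p = 0.0109 to 0.0461) and without LA2, LV3, LV4 or PV3. The calls of PV over SA and of PA over PV were not kept on the first probe. PV exceeded SA by 1.97 ± 0.51 (adjusted p = 0.0383) with the higher probe and by 2.35 ± 0.72 (adjusted p = 0.0795) with the first. The former call was also lost without any of 7 of the 8 arrays, all but PV3 (0.0551 to 0.155), and with the replicate number as a block (0.0567). PA exceeded PV by 1.26 ± 0.51 (adjusted p = 0.0424), with an adjusted p = 0.151 on the first probe alone, 0.0689 to 0.174 without PA1, PA2, PA3, PV2 or PV3, and 0.0537 with that block.

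Cidec, a lipid droplet protein of white and brown fat that fuses droplets into larger ones, rose in the same order as Adipoq. Its signal was 255.6, 200.0, 231.0 and 228.6 in PA, 192.6, 112.5, 52.4 and 177.6 in PV, 73.6, 73.1, 45.8 and 56.9 in SA, and 21.5 to 30.2 in LA. The PA arrays lay above all PV arrays, though PA against PV was not called (0.93 ± 0.59, adjusted p = 0.199), and the SA arrays lay above all LA arrays. A single LV array, at 99.6, stood above the other 3, none of which was well above background. Cidec was called higher in PV than in LA (2.22 ± 0.59, adjusted p = 0.0154; 0.0543 without PV4), in PA than in LA (3.14 ± 0.59, adjusted p = 0.000124) and in PA than in SA (1.88 ± 0.59, adjusted p = 0.0101).

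Fabp4 and Cfd did not follow Adipoq. Fabp4, a fatty acid carrier of fat cells that capillary endothelium and macrophages also make, was highest in LV, from 16599.1 to 28897.4, and lowest in PA, from 2533.9 to 4456.8. It was lower in PA than in LA (-1.39 ± 0.22, adjusted p = 1.79e-05), SA (-1.74 ± 0.22, adjusted p = 9.25e-07) and PV (-2.0 ± 0.22, adjusted p = 1.59e-07). The summed signal of 4 endothelial markers was 67990 to 72660 in LV, 22730 to 43870 in PA and 32640 to 40240 in LA, and its part in the Fabp4 levels was not tested. Cfd, adipsin, a protease of the complement pathway secreted by fat cells, spanned 2296 to 8151 over all arrays. It was called in none of the 5 contrasts in which it was tested. Its largest difference among them, 0.62 ± 0.32 in PA against SA, had an adjusted p = 0.111 (0.75, adjusted p = 0.039, with slide as a block).

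Over the 7 genes that were tested in the contrasts below, the calls were read against those over all 16089 genes tested. The 6 contrasts share arrays, so they are not independent. In PV against LA 2 of 7 genes were called, both higher (Adipoq and Cidec), where 6.99% of all genes were called higher and 6.51% lower. In PA against LA 4 were called higher (Adipoq, Cidec, Elovl3 and Lep) and 2 lower (Cidea and Fabp4), where the shares over all genes were 27.1% and 24.9%. Of these, Elovl3 was near the detection limit and was kept by the filter through no LA array. In PV against SA 1 gene, Lep, was called higher, though not on its first probe alone, where the shares were 2.71% and 0.783%. These shares were unstable: without 1 array, 143 to 435 of all genes were called higher and 33 to 133 lower, against 436 and 126. In PA against SA 3 were called higher (Adipoq, Cidec and Lep) and 2 lower (Cidea and Fabp4), at shares of 29.0% and 24.6%. In PA against PV 1 was called higher (Lep, again not on that probe alone) and 2 lower (Cidea and Fabp4), at shares of 29.7% and 23.7%. In SA against LA, where 7.03% of all genes were called higher and 8.26% lower, the fat genes were not tested. Ucp1, Slc36a2 and Cidec had ranges that did not overlap between SA and LA, which the choice of genes in part fixed for Ucp1 and Slc36a2. How many of all genes had such ranges was not counted, so this is a description and no result about the group.

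**Figure D2:**
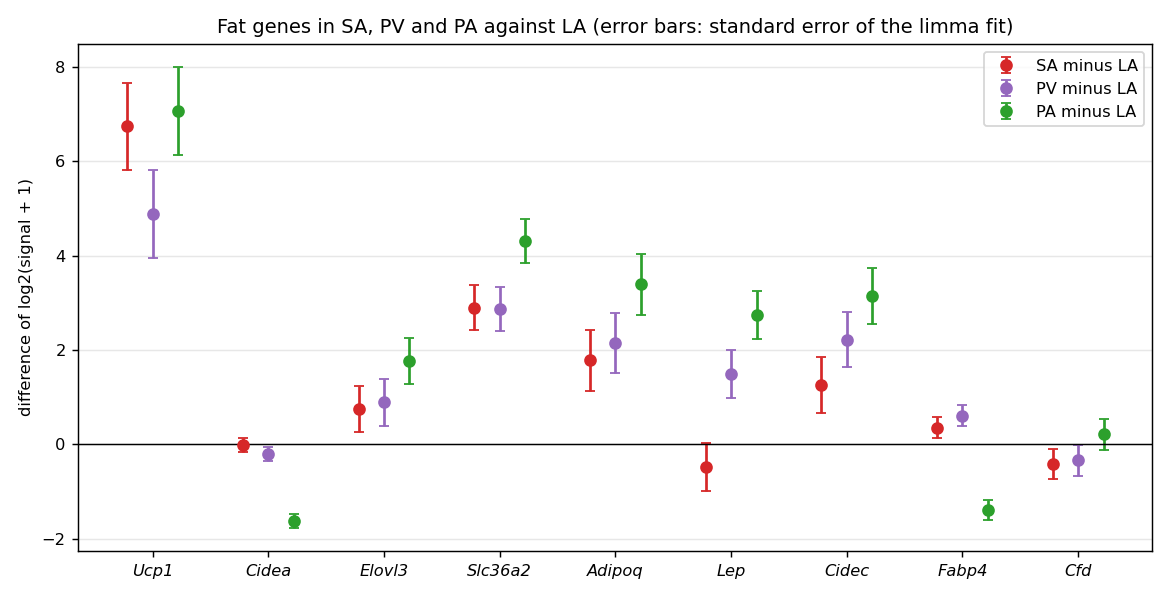
Difference of log2(signal + 1) of each fat gene between SA, PV or PA and LA, with the standard error of the limma fit (n = 4 arrays per region). Ucp1 is 6.74 higher in SA, 4.88 in PV and 7.07 in PA, whereas Cidea is at -0.02 in SA and -0.21 in PV and falls by 1.62 in PA. Not all LA arrays were well above background for Ucp1, so its differences have no exact size.

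PA also held far less cardiac muscle RNA than the cardiac regions. The summed signal of 5 atrial myocyte markers was 3315 to 39000 in PA and 1373000 to 1674000 in LA, 1567000 to 1717000 in SA and 1287000 to 1758000 in PV. The sum over 5 smooth muscle markers was 648400 to 777300 in PA and 57410 to 90250 in PV, 26070 to 50310 in SA and 4555 to 6263 in LA. These sums move with every PA contrast above, and their part in it was not tested. Sums over 5 Schwann cell markers were 11550 to 15930 in PV, 6512 to 7353 in SA and 3550 to 5286 in LA. Over these regions the means of Adipoq, Cidec, Fabp4 and Elovl3 had the same order, whereas those of Ucp1, Slc36a2, Lep, Cidea and Cfd did not. In PA the Schwann cell sums were 775.5 to 2750, where Adipoq, Cidec and Elovl3 were highest and Fabp4 lowest. The sum over 5 autonomic neuron markers was 705.1 to 978.9 in LA, 1352 to 2087 in SA, 1958 to 18550 in PV and 3118 to 7326 in PA. Npy, a neuropeptide of sympathetic nerves, was at mean log2 levels of 7.31 in LA, 9.80 in SA, 12.17 in PV and 11.55 in PA. Dbh, which makes noradrenaline, was at 8.93 in LA, 9.02 in SA, 10.17 in PV and 5.62 in PA, and the noradrenaline transporter gene Slc6a2 stayed between 6.31 and 6.94 in these regions. The sum over 5 mesothelium markers ran the other way, at 17120 to 21700 in LA, 4621 to 8604 in SA, 2933 to 8003 in PV and 2761 to 9454 in PA. The sum over 4 erythroid markers was 77750 to 150200 in SA, 76070 to 113900 in PV, 26900 to 46680 in LA and 17990 to 129400 in PA, where it spanned the range of LA. The part of these cell types in the results was not tested.

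Within an array, the log2 difference between 2 genes is free of the scaling of the array, and only its change between regions can be read. Ucp1 minus Adipoq was 2.50 ± 0.66 (SD, n = 4) in SA, 1.22 ± 1.14 in PA and 0.26 ± 2.11 in PV. The SA arrays were at 1.83, 3.34, 2.14 and 2.68. PA gave -0.49, 1.67, 1.72 and 1.95, and PV gave 1.54, 2.23, -0.22 and -2.50. The PV value of -2.50 belongs to the array with the second lowest Ucp1 signal of PV (324.2) and an Adipoq signal of 1838, whereas the array at -0.22 was low in both. The ranges of the 3 regions overlapped. Because Ucp1 was chosen for its pattern, these values are a description with no test.

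Lep minus Adipoq was -4.47 ± 0.68 in SA, -2.87 ± 0.39 in PV and -2.85 ± 0.48 in PA. Every SA array, from -5.01 to -3.49, lay below every PV and PA array. The region means differed by 1.62 between PA and SA and by 1.60 between PV and SA, each with p = 0.0286 in a two-sided exact permutation test over 70 splits, the smallest that 4 against 4 arrays allow, and 0.0857 after adjustment over 6 tests, so neither passed. With Lep taken from its first probe on every array the differences were 2.0 and 1.98. Either way 3 of the 4 SA values of Lep were not well above background, so the sizes are not exact. With a pseudocount of 16 both exact permutation p-values were 0.0571, and with normexp background correction the differences were 0.14 (exact permutation p = 0.686) and 0.42 (exact permutation p = 0.343). PA and PV, where the first probe gave every value, differed by 0.02 (exact permutation p = 0.914).

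**Figure D3:**
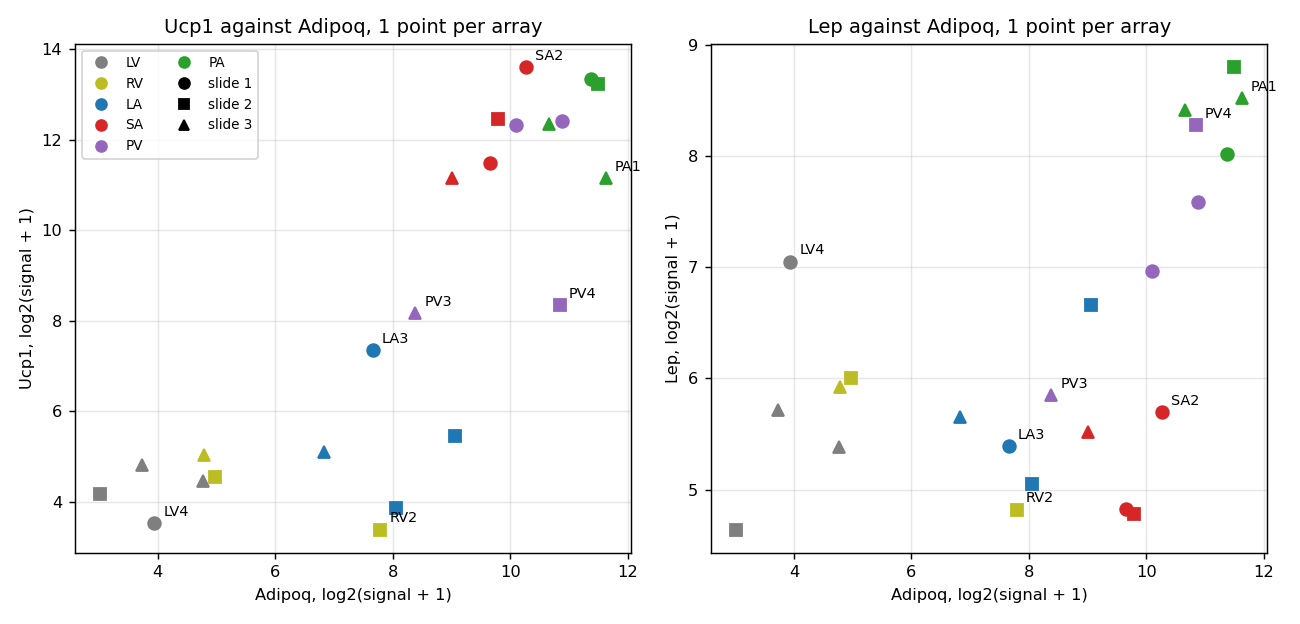
Ucp1 (left) and Lep (right) against Adipoq on each array, both axes log2(signal + 1), colored by region, with the marker shape giving the slide. In the left panel the PV array PV4 lies at an Adipoq level near that of PA but at a Ucp1 level of 8.35, while the 4 SA arrays lie between 11.15 and 13.60. In the right panel SA stays at or below a Lep level of 5.7 at Adipoq levels of 9.01 to 10.26.

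The PV arrays differed among themselves in more than Ucp1. Of the 4, the arrays with Ucp1 at 5486.4 and 5107.6 were on slide 1, that with 324.2 on slide 2 and that with 284.4 on slide 3. The sum over 5 autonomic neuron markers was 8735 and 6588 on the first pair, 1958 on the array lowest in Ucp1 and 18550 on PV4. PV3 was the lowest PV array in Ucp1, Slc36a2, Adipoq, Cidec, Lep and Cfd. The part of dissection, animal and slide in this spread was not tested, and no label separates them.

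Over the regions LA, SA, PV and PA, the lowest array of each region was on slide 3 in 4 of 4 regions for Adipoq, Slc36a2 and Cfd and in 3 of 4 for Ucp1 and Cidec, but in 1 of 4 for Cidea, Elovl3, Fabp4 and Lep. In PA the highest array for Adipoq, Cidec and Cfd was also on slide 3. In a limma fit with region and slide, chosen after the values were seen, the difference of slide 3 from slides 1 and 2 was -0.81 ± 0.38 for Adipoq (adjusted p = 0.253), -0.79 ± 0.51 for Ucp1, -0.63 ± 0.28 for Slc36a2 and -0.46 ± 0.18 for Cfd (adjusted p = 0.169), against 0.08 ± 0.39 for Cidec. None of the 9 genes was called in that fit by limma, with unadjusted p = 0.0234 for Cfd and 0.0373 for Slc36a2, while 686 of all genes were called higher and 32 lower on slide 3, and 3195 had an unadjusted p under 0.05. Within slides 1, 2 and 3, Adipoq was higher in PV than in LA by 2.82, 2.28 and 1.56 and in SA than in LA by 2.29, 1.23 and 2.20. For PA against LA these differences were 3.71, 2.94 and 4.33. Cidec was higher in PV than in LA by 2.65, 2.75 and 0.97 within the 3 slides. Lep was higher in PV than in LA by 1.89, 2.43 and 0.20 and in SA differed from LA by -0.12, -1.08 and -0.13. Ucp1 was higher in SA than in LA by 5.20, 7.82 and 6.05. All these within-slide values rest on 1 or 2 arrays per region, and with slide as a block the calls of Adipoq, Cidec and Lep given above passed, as did Fabp4 in PV against LA (0.69, adjusted p = 0.0397).

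**Figure D4:**
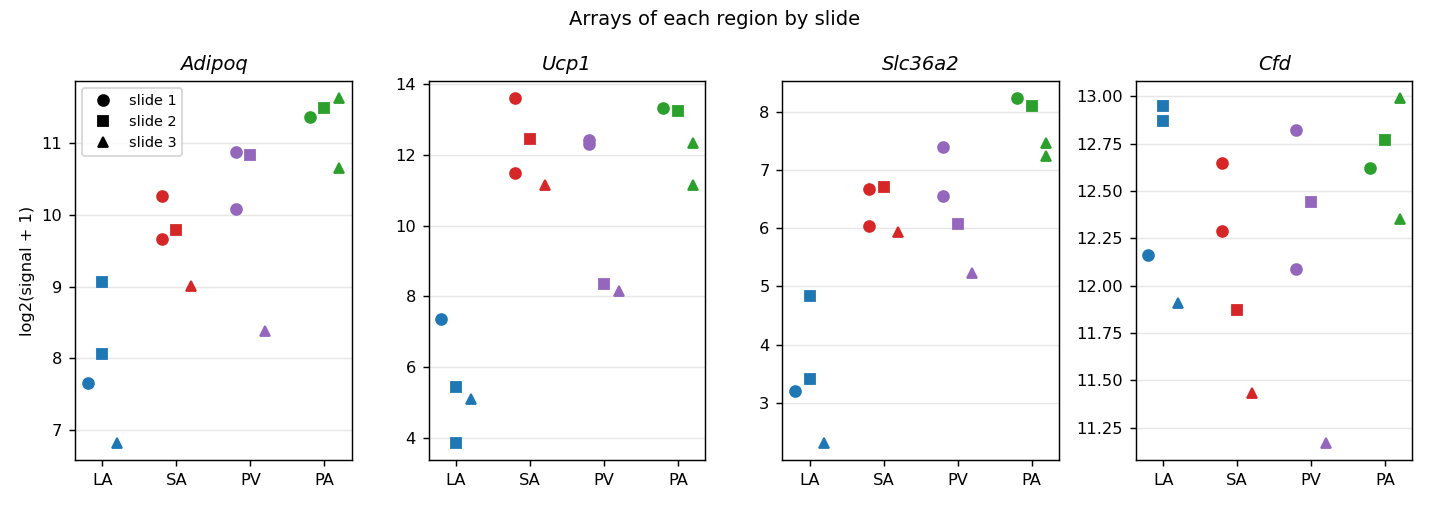
Adipoq, Ucp1, Slc36a2 and Cfd in LA, SA, PV and PA as log2(signal + 1), with 1 point per array and the marker shape giving the slide. In each region the lowest array is a triangle (slide 3) for Adipoq, Slc36a2 and Cfd. Adipoq is higher in PA than in LA within each slide, by 3.71, 2.94 and 4.33, while on slide 3 it is lower in PV than in SA.

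The other genes of fat were taken from 9 lists of 95 genes in all, of which 89 were tested. The lists were chosen with earlier results of these data known, in which Ucp1 and Slc36a2 had stood out in SA. Counts and adjusted p-values of list genes in SA against LA are therefore not independent of that choice. In SA against LA 16 were called higher and 2 lower, where the shares over all genes were 7.03% and 8.26%. In PV against LA the counts were 18 and 4, at shares of 6.99% and 6.51%. In PA against LA they were 32 and 35, at shares of 27.1% and 24.9%. In PV against SA they were 2 and 0 (2.71% and 0.783%), in PA against SA 25 and 35 (29.0% and 24.6%), and in PA against PV 21 and 34 (29.7% and 23.7%). The median difference over the 89 genes was 0.17 in SA against LA, beside 0.01 over all genes, 0.11 in PV against LA, beside -0.03, and 0.12 in PA against LA, beside 0.11. It was -0.06 in PV against SA, beside -0.04, -0.15 in PA against SA, beside 0.08, and -0.02 in PA against PV, beside 0.13. The counts of higher genes ranged from 12 to 18 in SA against LA and from 12 to 19 in PV against LA when 1 array was left out.

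Of the 9 genes of fatty acid synthesis, 4 were called higher in SA than in LA, 5 in PV and 7 in PA, beside 7.03%, 6.99% and 27.1% of all genes. The malic enzyme Me1, was called lower in PA (-0.91 ± 0.10) and higher in SA (0.37 ± 0.10). The medians were 0.43, 0.46 and 1.14. Scd, the desaturase that makes oleic acid, was higher than in LA by 2.92 ± 0.56 in SA (adjusted p = 0.00135), 3.88 ± 0.56 in PV (adjusted p = 0.000107) and 5.01 ± 0.56 in PA (adjusted p = 1.99e-07). Thrsp, a lipogenic regulator known as Spot 14, was higher by 2.17 ± 0.40 in SA and by 2.68 ± 0.40 in PV. Pck1, which makes the glycerol backbone of triglyceride in fat and belongs to the list of triglyceride synthesis, was higher in SA by 2.44 ± 0.76 (adjusted p = 0.0346).

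Of the 13 genes tested from the list of brown fat identity, which holds transcription factors and other markers, 0 were called in SA against LA by limma, where 1, Pank1, had an unadjusted p = 0.0222 and 7.03% of all genes were called higher and 8.26% lower. In PA against LA 2 were called higher, S100b (2.21 ± 0.29) and the mitochondrial protein gene Letmd1 (1.71 ± 0.15), and 6 lower, where the shares over all genes were 27.1% and 24.9%. In PV against LA 1 was called higher, beside 6.99% of all genes, and 0 lower, beside 6.51%. It was S100b, a calcium-binding protein that Schwann cells also make, and its level in PV exceeded that in SA by 1.57 ± 0.29 (adjusted p = 0.00615). Zic1 was at 6.44 ± 0.41 in SA, 6.85 ± 0.42 in PA and 6.13 ± 0.80 in LA. Lhx8 was at 5.45 ± 0.94 in SA and 5.71 ± 1.03 in LA. Zic1 was well above background on 3 of 4 arrays in SA and in LA, and Lhx8 on 2 of 4 in SA and 3 of 4 in LA. With levels that near the detection limit, the lack of a call does not show that these genes did not differ. Ebf2, which helps open brown fat enhancers, was at 8.42 ± 0.32 in SA and 8.65 ± 0.53 in LA, and it was lower in PA than in LA by -0.87 ± 0.24 (adjusted p = 0.0045). Ppargc1a, a coactivator of mitochondrial genes in brown fat and heart alike, did not differ by a called amount between SA and LA (0.06 ± 0.12) and was lower in PA by -2.56 ± 0.12 (adjusted p = 2.87e-13). Prdm16 had no matched probe and is not analysed here.

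Adrb3 and Dio2, genes of the thermogenic pathway upstream of UCP1, did rise, Adrb3 in all 3 regions and Dio2 in PA. Adrb3, the adrenergic receptor through which sympathetic nerves activate brown fat, was at 5.69 ± 0.62 in LA, 7.83 ± 0.48 in SA, 7.60 ± 0.94 in PV and 8.93 ± 0.60 in PA. It was higher than in LA by 2.14 ± 0.43 in SA (adjusted p = 0.00223), 1.91 ± 0.43 in PV (adjusted p = 0.00546) and 3.24 ± 0.43 in PA (adjusted p = 2.55e-06). Dio2, the deiodinase that makes active thyroid hormone in brown fat, was well above background on all 4 PA arrays and on no array of another region. It was at least 2.20-fold higher in PA than in LA (adjusted p = 6.56e-07), at least 1.21-fold higher than in SA and at least 1.49-fold higher than in PV. Of the 11 genes of thermogenesis and oxidation that were tested, 3 were called higher in SA than in LA, 2 in PV, and 2 in PA, beside 7.03%, 6.99% and 27.1% of all genes. In PA 6 were called lower, beside 24.9%. Cox8b and Cpt1b, which heart muscle also uses, were among those: Cox8b was lower in PA than in LA by -5.41 ± 0.26, and Cpt1b was lower in PA than in SA by -5.30 ± 0.23. Npr3, a clearance receptor for natriuretic peptides from the list of hormone signaling, was lower in PA than in LA by -5.21 ± 0.22 and than in PV by -5.10 ± 0.22.

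Of 5 genes linked to beige fat, brown-like cells within white depots, 0 were called in SA against LA by limma, where Slc27a1 had an unadjusted p = 0.0205 and 7.03% of all genes were called higher and 8.26% lower. In PV against LA 0 were called higher and 1 lower, Slc27a1 (-0.83 ± 0.21, adjusted p = 0.0126), beside 6.99% and 6.51%. In PA against LA 3 were called higher and 2 lower, beside 27.1% and 24.9% of all genes. Tbx1 was higher by 2.06 ± 0.26 log2 units (SE; limma adjusted p = 1.04e-06) and Tnfrsf9 by 3.06 ± 0.26 (adjusted p = 4.43e-09). Tmem26 was at least 4.76-fold higher (adjusted p = 0.000231), being not well above background on any LA array. Slc27a1 was lower by -0.68 ± 0.21 (adjusted p = 0.0115), and Cited1 was at 9.82 ± 0.27 in PA and 14.71 ± 0.31 in LA. Of 12 lipid droplet and lipolysis genes, 8 were called lower in PA than in LA and 3 higher (Plin4, Abhd5 and Bscl2), beside 24.9% and 27.1% of all genes, with Fitm1, which is known from striated muscle, lower by -6.22 ± 0.14 and Lipe, hormone-sensitive lipase, by -1.06 ± 0.19 (adjusted p = 0.000108). Lpl, which releases fatty acids from lipoproteins and is abundant in heart, was lower in PA by -4.12 ± 0.16 and did not differ by a called amount in SA (0.24 ± 0.16, adjusted p = 0.372). Pparg, the master regulator of fat cells, was higher than in LA by 0.61 ± 0.19 in SA (adjusted p = 0.0308), 0.69 ± 0.19 in PV (adjusted p = 0.0163) and 0.78 ± 0.19 in PA (adjusted p = 0.00134).

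Among 10 white fat-associated genes, 3 were called higher and 1 lower in SA, 3 and 0 in PV, and 5 and 1 in PA, with Tcf21 the lower one in both (-1.05 ± 0.28 and -1.49 ± 0.28). The shares over all genes called higher were 7.03%, 6.99% and 27.1%, and those called lower 8.26%, 6.51% and 24.9%. Retn, which encodes the fat hormone resistin, was at 8.32 ± 1.05 in LA, 9.55 ± 0.74 in SA, 9.72 ± 1.03 in PV and 10.97 ± 0.20 in PA, and it was called in PA against LA alone of the LA contrasts (2.65 ± 0.62, adjusted p = 0.00118). Sncg, a synuclein of peripheral neurons and white fat cells, was higher in PV than in LA by 3.07 ± 0.33 and than in SA by 1.45 ± 0.33 (adjusted p = 0.0205). The Schwann cell sum given above was also highest in PV, and the neuronal sum was highest on 1 PV array (18550) and as low as 1958 on another. Their part in the levels of Sncg and S100b was not tested. Hoxc9, a positional gene of posterior white fat, was at 6.25 ± 0.46 in LA, 6.35 ± 0.48 in SA and 6.41 ± 0.39 in PA.

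**Figure D5:**
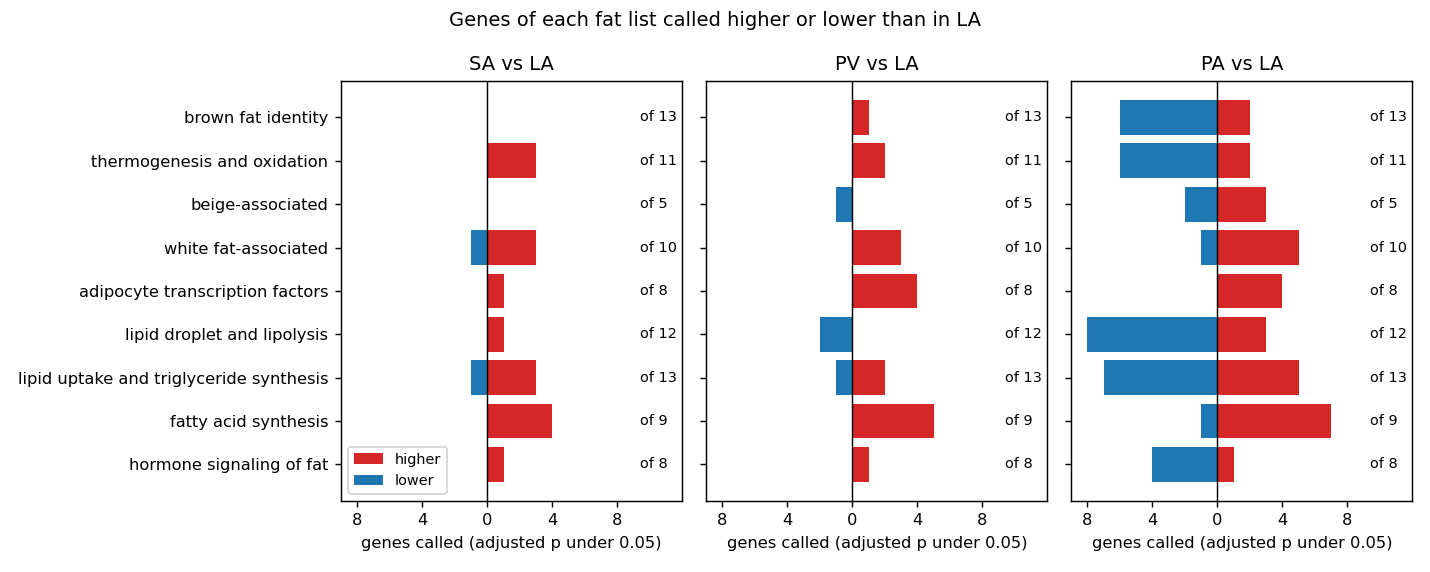
Number of genes of each of the 9 fat lists called higher (right of 0) or lower (left of 0) than in LA at an adjusted p under 0.05, with the number tested at the right. Fatty acid synthesis has 4, 5 and 7 of 9 genes higher in SA, PV and PA, while brown fat identity has 0 higher in SA and 2 higher and 6 lower in PA.

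The genes whose pattern over the 23 arrays was most like Ucp1 were, by Pearson's r of the log2 levels, Pygl (0.936), Adrb3 (0.934), Thrsp (0.926), Gys2 (0.916) and Fasn (0.904). Pygl and Gys2 encode glycogen phosphorylase and glycogen synthase, and Fasn is fatty acid synthase. For Adipoq they were Retn (0.982), Rbp4 (0.982), Car3 (0.965), Nat8l (0.949) and S100b (0.941). Rbp4 carries retinol, and Car3 is a carbonic anhydrase abundant in fat and muscle. These values rest mainly on the differences between regions. After the region means had been subtracted, Pygl stayed first for Ucp1 (0.856), followed by Kat8, Zmym4, Ust and Tpr, and Retn first for Adipoq (0.885), followed by Pck1, Rbp4, Mtarc1 and Trarg1. The Pygl probe was measured above background on 8 of the 23 arrays. The points share arrays, slides and scaling, and the values are descriptions without a test.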

How the data were processed

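RNA of the 6 regions was labeled with Cy3 and hybridized to Agilent SurePrint G3 Rat GE arrays, and per the labels images were read with Agilent Feature Extraction 11.0.1.1. The authors deposited, beside the scanner output, a table of normalized intensities. It was checked against the deposited scanner intensity: each array's processed signals (the mean of a probe's spots) times 1 factor (0.8807 to 1.5163), gave at least 99.56% of its values within 2%, and the 90th percentile was nearly equal on all arrays. That table holds linear intensity. Probes lacking a value somewhere (156) were dropped, the rest were named through RefSeq accessions (GRCr8; 21047 of 45440 probes had 1 symbol), the highest probe of a gene on each array was taken, and log2(signal + 1) was used for genes above 4 on at least 1 array. One limma 3.58.1 fit (R 4.3.3) of all 23 arrays with 6 regions gave standard errors and p-values with Benjamini-Hochberg adjustment over 16089 genes, called at 0.05. The fit was tested on simulated data. Within-array differences of Lep were compared with two-sided exact permutation tests. Those of Ucp1 were planned and run as well but are given as a description, since Ucp1 was chosen on these values.

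The fat genes and the lists were chosen with earlier results of these data known. With values are named all fat genes of the group, the 3 genes of the lists with the largest difference among those called in each contrast, and 12 lineage and lipid genes listed by name (Prdm16, Zic1, Lhx8, Ebf2, Ppargc1a, Dio2, Adrb3, Retn, Hoxc9, Pparg, Lipe, Lpl), besides the 5 genes most like Ucp1 and Adipoq. Outside this rule, Tbx1, Tnfrsf9, Tmem26, Cited1, Slc27a1, Pank1, Letmd1, Tcf21, Me1, Plin4, Abhd5 and Bscl2 were named after their values were seen. Npy, Dbh and Slc6a2, named with values from the autonomic neuron markers, are likewise outside it. Well above background follows the scanner's flag. It held for 58.55% to 79.76% of probes per array and was more frequent in row 1 of each slide than in row 2, so counts of arrays above background are not on equal terms. SA2 was the only SA array in row 1, and LA2 the only LA array in row 2. The number of arrays limits the precision. Alternatives were other scalings, background correction, pseudocounts, filters, probe choices, blocks and samples. Genes that share sequence with a close copy were not separated from it. Lists of thymus, lymphocyte, lung epithelium, macrophage and ventricular myocyte markers were also summed: over LA, SA, PV and PA they spanned 25.1 to 76.5, 105.6 to 412.8, 174.9 to 491.7, 1913 to 3105 and 4846 to 477300, the last with PA at 26100 or below and the other regions at 326900 or above.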

Additional observations from a re-analysis of the deposited data

Results flagged for a closer look

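Among 45 sets of values, 1 gene in 1 region of 4 arrays each, 2 held an array far from the other 3, and chance alone gives about 1 in 20. Both concern Elovl3 near the detection limit. In SA, the second array was at 4.54 in log2, against 3.35 to 3.47 on the others, and it was the 1 SA array on which the probe was well above background and on which Ucp1 was highest (12427.8). It was also the only SA array in row 1 of a slide. There the dimmest probe called well above background had a signal of 14.2, against 39.6 to 49.6 on the other SA arrays. In PV, the first array was at 3.41, against 3.93 to 3.99, with no array well above background.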

How the results depend on the processing

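Of 2904 values recomputed under 36 alternative settings, 2747 kept their direction and side of the threshold or, for a count, stayed within 1.5 times the reported one and, for a value with no test, within 1 SD of it. For the within-array differences, the threshold was applied to the unadjusted exact permutation p. The calls in PA against LA (6 genes) held under every setting that gave a value (Elovl3 had none under the stricter filter), and Cidea and Fabp4 stayed lower in PA in all 3 contrasts with it. The number of fat genes called in PV against LA, 2, was 5 with normexp background correction, 4 with a trend in the prior variance, and 1 with the row of arrays as a block or with only the 2 regions in the fit. It ranged from 0 to 4 when 1 array was left out, with 0 without PV4. In PV against SA, 1 call became 0 with normexp, with the probe of the highest mean, with the replicate block and with only the 2 regions, and ranged from 0 to 1 without 1 array. Without 1 array, PA against SA gave 4 to 7 and PA against PV 2 to 4.

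Of the other fat genes, those higher in PV against SA (2) were 4 with the trend and 1 with only the 2 regions, and 1 to 4 without 1 array. Those lower in PV against SA (0) were 1 with the scanner output at its 90th percentile, with the pseudocount of 16 and with the probe of the highest mean, 2 with the stricter filter and with the trend, and 0 to 3 without 1 array. With only the 2 regions, those lower in PV against LA (4) and in SA against LA (2) were 1 each. Without 1 array they ranged from 1 to 5 and from 1 to 3.

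For Lep minus Adipoq, normexp gave 0.14 (exact permutation p = 0.686) in PA against SA and 0.42 (p = 0.343) in PV against SA, and the pseudocount of 16 gave 1.19 and 1.26. In PA against PV, the difference of 0.02 became -0.28 with normexp, -0.069 with the pseudocount of 16 and -0.068 with quantile normalization. Without 1 array it ranged from -0.18 to 0.19, and in PA against SA from 1.42 to 1.94 and in PV against SA from 1.42 to 1.92. The exact permutation p was 0.0571 without any 1 PA array in the former and without any 1 PV array in the latter. Ucp1 minus Adipoq in PV against SA ranged from -2.89 (without PV2) to -1.31, in PA against SA from -1.53 to -0.71 and in PA against PV from 0.031 to 1.61. Small differences that turned sign were Cfd in PV against SA without 1 array (-0.16 to 0.39), Elovl3 in PV against SA with normexp (-0.065), Slc36a2 in PV against SA with quantile normalization (0.025) or without 1 array (-0.39 to 0.33), and Ucp1 in PA against SA without 1 array (-0.0094, without SA3, to 0.81). The cause was not tested. Quantile normalization ended the calls of Adipoq in PA against SA (1.58, adjusted p = 0.0535) and Lep in PA against PV (1.15, adjusted p = 0.0698). Normexp, which adds an offset, gave smaller differences for dim genes, such as 1.12 for Slc36a2 in SA against LA, and shifted the median of all genes in PA against LA from 0.11 to 0.23 and in SA against LA from 0.01 to 0.17, where it called 3170 genes higher and 1015 lower, against 1131 and 1329. In PV against LA it called 1471 higher and 808 lower, against 1124 and 1048, and in PA against LA 6146 and 3473, against 4368 and 4009. With only the 2 regions in the fit, and so fewer samples, PV against SA gave 56 and 11 calls, against 436 and 126, and PV against LA 657 and 607. The probe of the highest mean ended the calls of Lep in PV against SA (adjusted p = 0.0795) and in PA against PV (0.151), and the row as a block that of Adipoq in PV against LA (0.078).

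Arrays with the same replicate number showed no clear likeness: of 55 pairs of regions and numbers, 12 had a correlation of deviations above 0.1. The median was -0.043 and the highest 0.336. Such correlations cannot tell whether same-numbered arrays came from the same rat. With the replicate block, 2 fat genes were called in PV against LA, 0 in PV against SA and 2 in PA against PV. No test of Ucp1 minus Plin1 was run, because no probe was matched for Plin1.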

Other observations

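Some values belong to no comparison above. LV1 had a Cidec signal of 99.6 and an Elovl3 signal of 55.6, while no other LV array was well above background for either, and its Adipoq (12.3) and Ucp1 (27.1) signals stayed in the range of the ventricles. LV4 had a Lep signal of 131.1, above every LA array, with Adipoq at 14.4. RV2 had an Adipoq signal of 220.6 with Ucp1 at 9.4, not well above background. LA3 had the highest Ucp1 signal of LA (161.8) with an Adipoq signal of 201.9, while LA2, with the highest Adipoq signal of LA (533.2), had Ucp1 at 42.3. Each of these is 1 array and has no replicate.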
